A study of Mus musculus with 12 samples.

Results

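RNAseq libraries labelled WT-shARF were compared with WT-shSCR libraries, replicates 1 and 2 of each. These are 4 of the 12 libraries in the series, chosen by assay, genotype and hairpin as labelled. MEFs are fibroblasts grown from mouse embryos. Both groups were WT cells at passage 4, given as C57BL/6J in the labels and as B6129SF2/J in the study's methods, transduced with a lentiviral short hairpin RNA in pLKO.1-puro and selected with puromycin. The hairpin was shARF, against ARF, in WT-shARF cells and the scrambled shSCR in WT-shSCR cells. The third group of the series, Arf-/--shSCR MEFs at passage 4 (strain B6.129X1-Cdkn2atm1Cjs/KaiJ, labelled ArfKO), lacks ARF in the germ line and carries the scrambled hairpin, so all groups were transduced and selected. Ribosome profiling, which sequences the mRNA fragments that ribosomes shield from nuclease, was run on the same 3 groups. No source states that replicates were separate embryos or transductions, so p-values measure only the spread between these libraries, which may be technical.

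ARF is 1 of the products of Cdkn2a and accumulates as MEFs are passaged in culture. It binds MDM2, the ubiquitin ligase that marks p53 for degradation, and so keeps p53 active. p53 in turn induces Cdkn1a (p21), an inhibitor of cyclin-dependent kinases, and cells with active p53 and p21 hold the genes of DNA replication and mitosis down. ARF also resides in the nucleolus, where it restrains the making of ribosomal RNA.

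The RNAseq counts on genes were 2803035 and 1578627 in the WT-shSCR libraries and 1817812 and 3989908 in those labelled WT-shARF, so replicates differed in depth within both groups. Levels are given as CPM, counts scaled by library size and edgeR's TMM factors. Of 10503 genes with enough reads for a test, 765 were called (7.28%), 327 higher (3.11%) and 438 lower (4.17%) in the libraries labelled WT-shARF, at an edgeR adjusted p under 0.05. The median log2 fold change of all genes tested was -0.00. Among the called genes 114 rose and 155 fell by over 2-fold. Between the groups 325 of the 327 higher and 429 of the 438 lower genes did not overlap, against 2573 genes higher and 2627 lower without overlap among all tested. Genes named by rule from the gene lists, or as largest changes, had to be without overlap. For them, separate groups were fixed by that choice and add no support. With 2 libraries against 2, an exact permutation test of a single gene cannot give a p under 0.33, so each call borrows the spread of other genes through edgeR. Whichever library was left out, 69 of the 327 and 82 of the 438 calls were kept, and DESeq2 called 115 and 172 of them. The count of higher calls was 121 without WT-shARF replicate 1, and that of lower calls was 153 without WT-shARF replicate 2, the lowest in each direction.

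Cdkn2a itself went against the label. It encodes ARF and, from another first exon, the CDK inhibitor INK4A, and the counts hold both. In GRCm38 it spans 89274471 to 89294653 of chromosome 4, minus strand. It had 119 and 65 reads in the WT-shSCR libraries and 1201 and 2852 in those labelled WT-shARF, or 45.6 and 42.4 against 651 and 675 CPM. Both libraries labelled WT-shARF were far above both controls, and the RNA was 15.0-fold higher (log2 fold change 3.91, SE 0.16, edgeR adjusted p = 5.57e-18). Its footprints rose as well, at 93.2 and 66.1 against 532 and 741 CPM (log2 fold change 2.99, edgeR adjusted p = 3.49e-17). In Arf-/--shSCR cells Cdkn2a had 76 and 75 reads, a log2 fold change of -0.54 (edgeR adjusted p = 0.197) from WT-shSCR. By immunoblot, which measures protein and not RNA, the study reported knockdown of ARF in MEFs given shARF. Whether the labels of the groups were exchanged, or whether part of these reads came from the hairpin vector, was not tested. Every direction given here goes by the label, and an exchange would turn round each one between WT-shARF and WT-shSCR. Values of Arf-/--shSCR cells would then have the other group as their reference.

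Of the genes that link ARF to the cell cycle, Cdkn1a and Mdm2 fell and Trp53 and Cdkn2b did not pass the test. Cdkn1a stood at 121 and 138 CPM in the WT-shSCR libraries and 97.5 and 61.8 CPM in those labelled WT-shARF. The groups did not overlap, and Cdkn1a fell (log2 fold change -0.73, SE 0.19, edgeR adjusted p = 0.0142), a call that was lost without WT-shARF replicate 2 (edgeR adjusted p = 0.479), with all 6 RNA libraries in 1 fit (0.0595) and with DESeq2 (0.0819). Mdm2, itself induced by p53, stood at 111 and 112 against 63.9 and 68.9 CPM and fell (log2 fold change -0.74, SE 0.18, edgeR adjusted p = 0.00743). The Mdm2 call was lost without WT-shARF replicate 1 or 2 (edgeR adjusted p = 0.102 and 0.0787). Trp53, which encodes p53, gave 93.4 and 112 against 110.0 and 82.2 CPM with overlapping groups (log2 fold change -0.10, SE 0.18, edgeR adjusted p = 0.81). Cdkn2b, the INK4B gene beside Cdkn2a, gave 23.7 and 24.8 against 21.7 and 23.9 CPM, again with overlap (log2 fold change -0.08, SE 0.29, edgeR adjusted p = 0.923). Among 7 tested CDK inhibitors Cdkn2a was the 1 called higher (14.3%, against 3.11% of all genes) and Cdkn1a the 1 called lower (14.3%, against 4.17%).

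Of 36 tested genes known to be induced by p53, 6 were called lower (16.7%, against 4.17% of all genes) and 1 higher (2.78%, against 3.11%), with a median log2 fold change of -0.27. The 6 were Perp, Dcxr, Mdm2, Cdkn1a, Btg2 and Bax, and the 1 higher was Ccnd1, cyclin D1. Perp, a membrane protein of p53-dependent apoptosis, gave 13 and 18 reads against 1 and 10, or 4.98 and 11.7 against 0.542 and 2.37 CPM (log2 fold change -2.18, SE 0.69, edgeR adjusted p = 0.0493). Dcxr, a carbonyl reductase, gave 42.1 and 26.1 against 20.6 and 13.3 CPM (log2 fold change -1.1, SE 0.30, edgeR adjusted p = 0.0224). Btg2, an antiproliferative cofactor of mRNA deadenylation, gave 37.9 and 43.1 against 21.1 and 21.3 CPM (log2 fold change -0.92, SE 0.25, edgeR adjusted p = 0.0232). These 3 genes were lower in both libraries labelled WT-shARF than in either control. Bax, the pore-forming killer protein of the mitochondrial membrane, gave 254 and 236 against 153 and 154 CPM (log2 fold change -0.67, SE 0.14, edgeR adjusted p = 0.00247). Targets that did not pass included Rps27l, at 358 and 323 against 250.4 and 272 CPM (log2 fold change -0.38, SE 0.13, edgeR adjusted p = 0.0784), and Ccng1, at 248 and 266 against 192 and 247 CPM (log2 fold change -0.21, SE 0.14, edgeR adjusted p = 0.434). The call of Perp was lost on leaving out any 1 of the 4 libraries (edgeR adjusted p up to 0.482). The call of Dcxr was lost without WT-shSCR replicate 1 or WT-shARF replicate 2 (edgeR adjusted p up to 0.383). The call of Btg2 was lost without WT-shSCR replicate 2 or either WT-shARF replicate (edgeR adjusted p up to 0.168). The call of Bax was lost without WT-shARF replicate 2 (edgeR adjusted p = 0.0576). Without WT-shARF replicate 2, 0 of the 36 were called lower by edgeR, and the count was 3 without WT-shARF replicate 1 and 4 without WT-shSCR replicate 2. DESeq2 called 2 lower, and 11 were lower at an unadjusted p under 0.05.

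The mitosis genes had the highest median log2 fold change of the 39 gene lists. Mitosis is driven by cyclin B with CDK1 and by the Polo and Aurora kinases, and it needs kinesin motors, a centromere to hold the chromosomes and a checkpoint that waits for their attachment. Of 75 tested mitosis genes 51 were called higher (68%, against 3.11% of all genes) and 0 lower, with a median log2 fold change of 1.00, and 73 had a log2 fold change above 0. At an unadjusted p under 0.05, 64 were higher and 0 lower, and DESeq2 called 39 higher and 0 lower. Summed over the list, the level was 3994 and 4047 CPM in the WT-shSCR libraries and 7605 and 7482 CPM in those labelled WT-shARF. The count was 48 and 49 without WT-shSCR replicate 1 or 2, and 45 and 40 without WT-shARF replicate 1 or 2, and 35 genes were called in all 4 of these fits.

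Many promoters of mitotic genes hold a known short element, the cell cycle genes homology region (CHR), with the letters TTTGAA, through which the DREAM and MuvB complexes bind mitotic genes. In the RefSeq promoter table (GRCm38.p6, 250 bases before to 50 after each start, both strands searched) 60 of the 75 genes had an entry. The motif stood in 43 of the 60 promoters (71.7%), against 13.8% of all 8107 promoters of tested genes. It stood in 31 of 41 called (75.6%) and 12 of 19 uncalled mitosis genes (63.2%). Over the whole comparison it was in 83 of 249 promoters of genes called higher (33.3%) and in 46 of 343 of genes called lower (13.4%). On the gene's own strand and within 50 bases of the start it was in 25 of the 60 mitosis promoters (41.7%) and in 2.18% of all. CCAAT, which often accompanies the CHR and was searched after the data were seen, was in 42 of the 60 (70%) and in 43.2% of all. The 30 bases around the element in 4 genes that rose are shown, with the motif in capitals and position 0 as the first base of the gene.
Kif20b, chr19:34922353-34922382, plus strand, motif at 7: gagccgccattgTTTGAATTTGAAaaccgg
Cenpa, chr5:30666890-30666919, plus strand, motif at 16: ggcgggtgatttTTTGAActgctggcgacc
Prc1, chr7:80294434-80294463, plus strand, motif at -5: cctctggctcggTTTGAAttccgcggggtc
Aspm, chr1:139454767-139454796, plus strand, motif at 6: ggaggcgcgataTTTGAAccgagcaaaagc
Kif20b holds 2 copies of the element in tandem. A match is a description of these letters, not evidence of binding.

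Those 4 genes and others that rose serve different steps of division. Cdca8, which encodes borealin of the chromosomal passenger complex, stood at 24.5 and 19.6 CPM in the WT-shSCR libraries and 68.3 and 71.8 CPM in those labelled WT-shARF. It rose 3.13-fold (log2 fold change 1.64, SE 0.23, edgeR adjusted p = 1.2e-05). Kif20b, a kinesin of cytokinesis, stood at 16.1 and 17.0 against 54.2 and 44.1 CPM and rose 2.94-fold (log2 fold change 1.56, SE 0.26, edgeR adjusted p = 0.000204). Cenpa, the histone variant that marks the centromere, stood at 15.3 and 23.5 against 49.3 and 58.3 CPM and rose 2.89-fold (log2 fold change 1.53, SE 0.26, edgeR adjusted p = 0.000201). In all 3 both libraries labelled WT-shARF were above both WT-shSCR libraries, as the rule that named them required. Prc1, the bundler of the central spindle, gave 61.3 and 71.8 against 173 and 169.6 CPM (log2 fold change 1.38, SE 0.17, edgeR adjusted p = 1.41e-06). Aspm, a spindle pole protein, gave 23.7 and 32.6 against 60.2 and 74.8 CPM (log2 fold change 1.31, SE 0.23, edgeR adjusted p = 0.00033). Cdc25b, a phosphatase that activates CDK1, had few reads in the controls, 27 and 8 against 45 and 96, and rose 2.85-fold (log2 fold change 1.51, SE 0.38, edgeR adjusted p = 0.0122). Cdca8, Kif20b, Cenpa, Prc1 and Aspm kept their calls whichever library was left out. The call of Cdc25b was lost without WT-shSCR replicate 2 or WT-shARF replicate 2 (edgeR adjusted p up to 0.0636).

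The drivers of mitotic entry rose together with their transcription factors. Ccnb1, cyclin B1, stood at 81.2 and 88.1 against 184 and 188 CPM and rose 2.21-fold (log2 fold change 1.14, SE 0.16, edgeR adjusted p = 1.2e-05). Cdk1 stood at 171 and 148 against 274 and 259.6 CPM and rose 1.66-fold (log2 fold change 0.73, SE 0.14, edgeR adjusted p = 0.00111). Ccna2, cyclin A2, stood at 73.5 and 124 against 185 and 209 CPM and rose 2.04-fold (log2 fold change 1.03, SE 0.18, edgeR adjusted p = 0.000346). Foxm1, the forkhead activator of late cell cycle genes, stood at 33.7 and 41.1 against 107 and 80.0 CPM and rose 2.50-fold (log2 fold change 1.32, SE 0.21, edgeR adjusted p = 9.47e-05). No library labelled WT-shARF fell below a control in these 4 genes. Mybl2, the MuvB partner of S phase, gave 37.9 and 32.0 against 63.4 and 54.7 CPM (log2 fold change 0.73, SE 0.22, edgeR adjusted p = 0.0347). Plk1, the Polo kinase, gave 83.9 and 95.3 against 184 and 157 CPM (log2 fold change 0.93, SE 0.16, edgeR adjusted p = 0.00035), and Aurka, the Aurora kinase of the spindle poles, gave 76.6 and 75.7 against 172 and 142 CPM (log2 fold change 1.04, SE 0.17, edgeR adjusted p = 0.000139). Ccnb1, Cdk1, Ccna2, Foxm1, Plk1 and Aurka kept their calls whichever library was left out. The call of Mybl2 was lost without WT-shSCR replicate 2 or either WT-shARF replicate (edgeR adjusted p up to 0.249).

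Motor, checkpoint and chromosome genes followed. Kif11, the motor that separates the spindle poles, stood at 33.3 and 29.4 against 69.9 and 81.9 CPM (log2 fold change 1.27, SE 0.21, edgeR adjusted p = 0.000179). Kif20a, a kinesin of the midzone, stood at 146 and 141 against 345 and 346 CPM (log2 fold change 1.27, SE 0.14, edgeR adjusted p = 2.28e-07). Bub1 and Bub1b, kinases of the spindle checkpoint, rose 2.46-fold and 2.22-fold (edgeR adjusted p = 0.000224 and 2.2e-05). Cdc20, the activator of the anaphase-promoting complex, stood at 136 and 167 against 283 and 308 CPM (log2 fold change 0.98, SE 0.15, edgeR adjusted p = 4.06e-05). The groups did not overlap in any of these genes. Top2a, the topoisomerase that untangles chromosomes, stood at 217 and 249 against 454 and 458 CPM (log2 fold change 0.97, SE 0.13, edgeR adjusted p = 1.2e-05). Mki67, the Ki-67 coat of mitotic chromosomes and a common marker of cycling cells, stood at 107 and 127 against 236 and 236 CPM (log2 fold change 1.02, SE 0.15, edgeR adjusted p = 3.27e-05). Birc5, survivin, gave 30.6 and 25.5 against 56.4 and 59.4 CPM (log2 fold change 1.03, SE 0.22, edgeR adjusted p = 0.00332). Pttg1, securin, gave 18.4 and 13.7 against 13.5 and 9.0 CPM, with both libraries labelled WT-shARF below both controls (log2 fold change -0.58, SE 0.40, edgeR adjusted p = 0.441). It did not pass and was 1 of the 2 members with a log2 fold change below 0. Kif11, Kif20a, Bub1, Bub1b, Cdc20, Top2a and Mki67 kept their calls whichever library was left out. The call of Birc5 was lost without WT-shARF replicate 2 (edgeR adjusted p = 0.053).

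**Figure D1:**
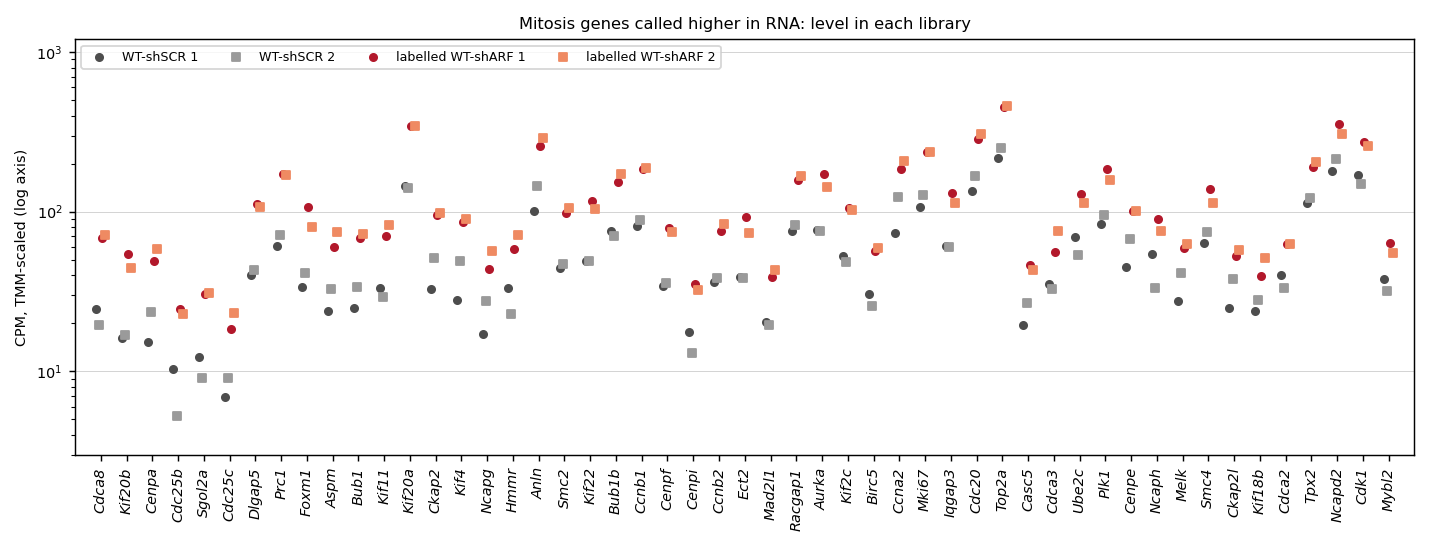
Level of each of the 51 mitosis genes called higher, ordered by fold change, in CPM on a log axis, with 1 point per library: circles are replicate 1, squares are replicate 2, greys are WT-shSCR and reds are labelled WT-shARF. In each gene both red points lie above both grey points; Cdca8 stands first at 24.5 and 19.6 against 68.3 and 71.8 CPM, and Cdc25b has the lowest control value of 5.22 CPM.

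DNA replication copies the genome in S phase with a helicase, polymerases and a supply of deoxynucleotides. Of 56 tested genes, 10 were called higher (17.9%, against 3.11% of all genes) and 0 lower, with a median log2 fold change of 0.44. At an unadjusted p under 0.05 the counts were 27 and 0, and with DESeq2 5 and 0. Dbf4, the activator of the origin-firing kinase CDC7, stood at 23.7 and 25.5 CPM in the WT-shSCR libraries and 56.4 and 69.4 CPM in those labelled WT-shARF, and rose 2.59-fold (log2 fold change 1.37, SE 0.23, edgeR adjusted p = 0.00019). Rrm1 and Rrm2, the subunits of ribonucleotide reductase, which makes deoxynucleotides, both rose. Rrm1 stood at 357 and 370.1 against 643 and 588 CPM (log2 fold change 0.76, SE 0.13, edgeR adjusted p = 0.000249), and Rrm2 at 169 and 166 against 288 and 303 CPM (log2 fold change 0.82, SE 0.14, edgeR adjusted p = 0.000224). Dut, the dUTPase that keeps uracil out of DNA, gave 67.4 and 82.2 against 119 and 107 CPM (log2 fold change 0.60, SE 0.18, edgeR adjusted p = 0.0347). Mcm2, Mcm3 and Mcm5, parts of the replicative helicase, rose 1.48-fold, 1.41-fold and 1.45-fold (edgeR adjusted p = 0.0137, 0.031 and 0.0259). Pcna, the sliding clamp, gave 195 and 184 against 236 and 243 CPM and did not pass (log2 fold change 0.34, SE 0.14, edgeR adjusted p = 0.151).

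Ccnd1, cyclin D1 of the G1 phase, stood at 142 and 151 against 212 and 207 CPM and rose 1.43-fold (log2 fold change 0.51, SE 0.14, edgeR adjusted p = 0.0258). In the replication list the calls of Dbf4, Rrm1 and Rrm2 were the 3 kept whichever library was left out, and the count was 3 without WT-shARF replicate 1 and 6 without WT-shARF replicate 2. The calls of Ccnd1 and Dut were lost without WT-shSCR replicate 1 or either WT-shARF replicate (edgeR adjusted p up to 0.175 and 0.258). The call of Mcm2 was lost without WT-shARF replicate 1 (edgeR adjusted p = 0.271). The calls of Mcm3 and Mcm5 were lost without WT-shSCR replicate 2 or either WT-shARF replicate (edgeR adjusted p up to 0.235 and 0.263). Of E2F-site letters, searched after the data were seen, TTTCCCGC was in 8 of 46 replication promoters (17.4%) and in 2.47% of all, and TTTGGCGC was in 6 (13%) and in 1.18% of all.

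Replication-dependent histone genes, which supply the chromatin of S phase, gave 5 higher (9.62%, against 3.11% of all genes) and 0 lower calls among 52 tested, with a median log2 fold change of 0.38. Hist1h1e, linker histone H1.4, stood at 245 and 212 against 379 and 318 CPM (log2 fold change 0.60, SE 0.14, edgeR adjusted p = 0.0063). Hist1h3d and Hist1h2ak, core histones, rose 2.00-fold and 1.73-fold (edgeR adjusted p = 0.0484 and 0.0127). Hist1h4d, an H4 gene, gave 327 and 248 against 494 and 330.1 CPM (log2 fold change 0.50, SE 0.16, edgeR adjusted p = 0.0484), where the second library labelled WT-shARF was close to the first control. These genes have near-identical copies, and records that were not unique were not counted, so single members are uncertain. The count of 5 depended on the library and tool. It was 16, 1, 0 and 7 without WT-shSCR replicate 1, WT-shSCR replicate 2, WT-shARF replicate 1 and WT-shARF replicate 2, and 1 with DESeq2, and 24 were higher at an unadjusted p under 0.05. In footprints 25 of 50 were called higher, where 5.63% of all genes were.

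Nucleolar genes that build ribosomes gave 9 higher (17.3%, against 3.11% of all genes) and 0 lower calls among 52, with a median log2 fold change of 0.28 (16 and 1 at an unadjusted p under 0.05, 3 and 0 with DESeq2). Wdr43, of the small-subunit processome, stood at 60.9 and 43.1 against 85.6 and 112 CPM (log2 fold change 0.91, SE 0.20, edgeR adjusted p = 0.00345). Mphosph10, of the same particle, gave 16.1 and 18.9 against 30.9 and 33.4 CPM (log2 fold change 0.90, SE 0.28, edgeR adjusted p = 0.0484). Ncl, nucleolin, gave 237 and 247 against 331 and 372 CPM (log2 fold change 0.55, SE 0.13, edgeR adjusted p = 0.00984). The groups were apart in these 3. Grwd1 and Wdr12, factors of the large subunit, rose 1.61-fold and 1.59-fold (edgeR adjusted p = 0.0224 and 0.0437). Nop58, a core snoRNP protein, and Ubtf, a transcription factor of ribosomal DNA, rose 1.51-fold and 1.43-fold (edgeR adjusted p = 0.0273 and 0.0361). Npm1, the nucleophosmin that binds ARF, gave 418 and 407 against 497 and 508 CPM (log2 fold change 0.28, SE 0.13, edgeR adjusted p = 0.191) and did not pass. Without WT-shARF replicate 2, 0 of the 52 were called, and the count was 3 without WT-shARF replicate 1 and 5 without WT-shSCR replicate 1. The calls of Wdr43 and Ncl were lost without WT-shARF replicate 2 (edgeR adjusted p = 0.175 and 0.235). The calls of Mphosph10, Nop58 and Ubtf were lost without WT-shSCR replicate 1 or either WT-shARF replicate (edgeR adjusted p up to 0.302, 0.349 and 0.214). The call of Grwd1 was lost without WT-shSCR replicate 2 or either WT-shARF replicate (edgeR adjusted p up to 0.184). The call of Wdr12 was lost on leaving out any 1 of the 4 libraries (edgeR adjusted p up to 0.309).

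Of 42 genes of the ATF4 and amino acid stress program, 5 were called higher (11.9%, against 3.11% of all genes) and 0 lower, with a median log2 fold change of 0.22 (12 and 2 at an unadjusted p under 0.05, 3 and 0 with DESeq2). The 5 were Psph, Aldh1l2, Psat1, Slc7a5 and Shmt2. Psph and Psat1 catalyse the last steps of serine synthesis. Psph stood at 29.1 and 42.4 against 69.4 and 72.9 CPM (log2 fold change 1.03, SE 0.22, edgeR adjusted p = 0.00247), and Psat1 at 281 and 281 against 498 and 419.9 CPM (log2 fold change 0.70, SE 0.13, edgeR adjusted p = 0.000912), with no overlap in either gene. Aldh1l2 and Shmt2, mitochondrial enzymes of one-carbon metabolism, rose 1.76-fold and 1.47-fold (edgeR adjusted p = 0.0265 and 0.0149). Slc7a5, the transporter of large neutral amino acids, gave 77.4 and 90.1 against 139.8 and 116 CPM (log2 fold change 0.61, SE 0.17, edgeR adjusted p = 0.0273). Atf4 itself and its targets Asns and Phgdh did not pass, with log2 fold changes of 0.29, 0.27 and 0.11 (edgeR adjusted p = 0.291, 0.237 and 0.716). The count was 3, 5, 1 and 2 without WT-shSCR replicate 1, WT-shSCR replicate 2, WT-shARF replicate 1 and WT-shARF replicate 2. The call of Psph was lost without WT-shSCR replicate 1 (edgeR adjusted p = 0.0563). The call of Psat1 was lost without WT-shARF replicate 1 (edgeR adjusted p = 0.053). The calls of Aldh1l2 and Slc7a5 were lost without WT-shSCR replicate 1 or either WT-shARF replicate (edgeR adjusted p up to 0.371 and 0.314). The call of Shmt2 was lost without WT-shSCR replicate 2 or either WT-shARF replicate (edgeR adjusted p up to 0.164). The ATF4 element TGATGNAA was in 13 of 33 promoters of the list (39.4%, against 2.54% of all) and in 0 of the 3 called genes with an entry.

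**Figure D2:**
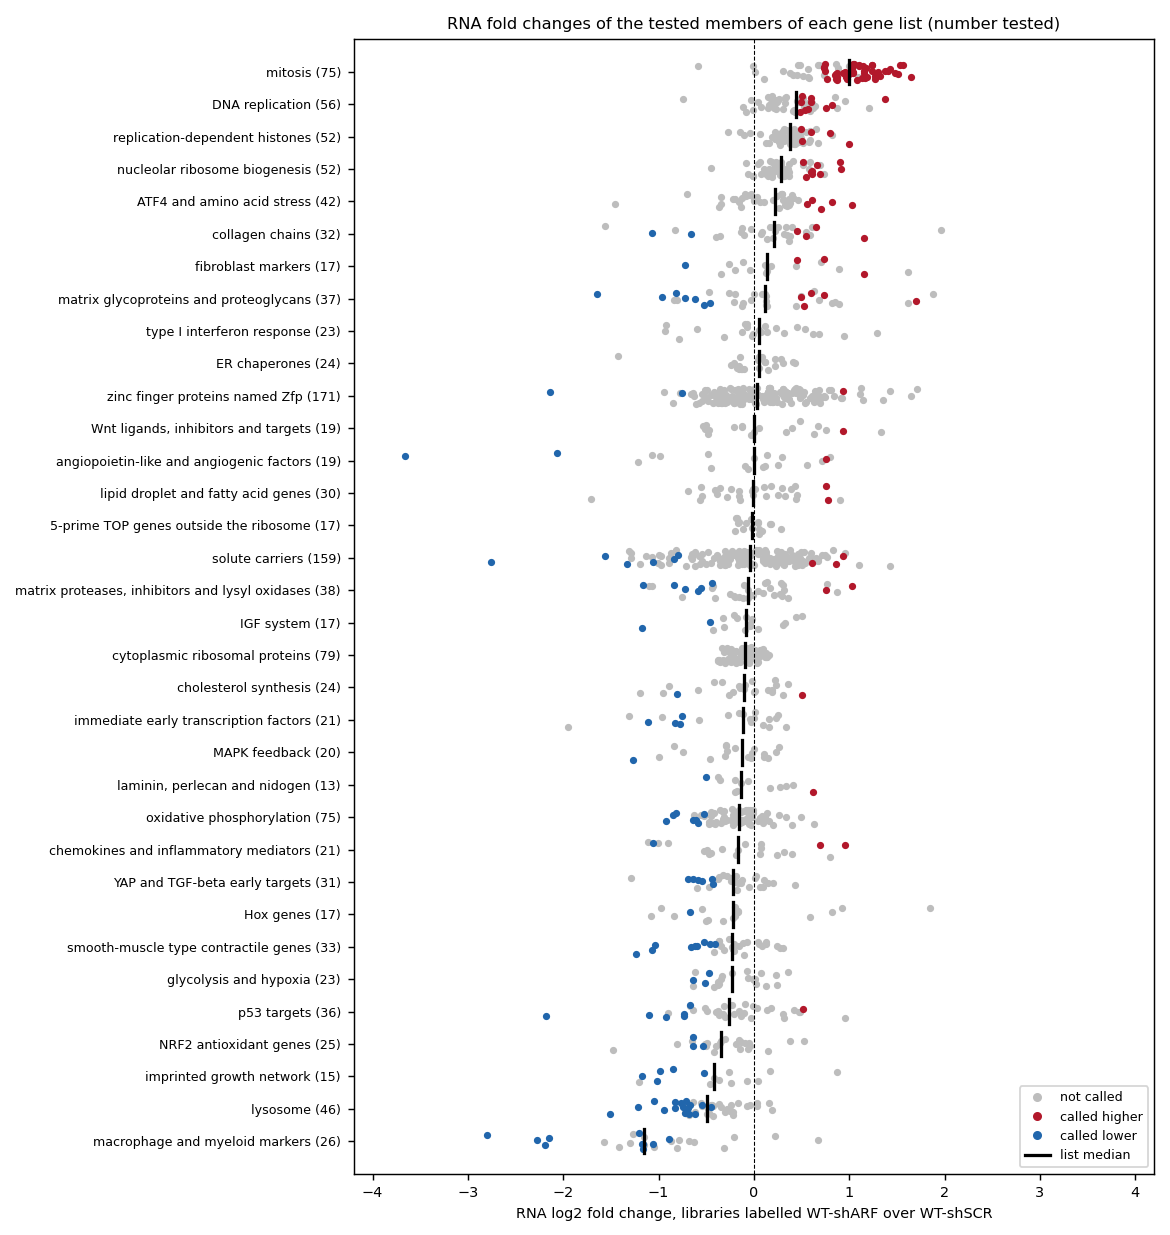
RNA log2 fold change (libraries labelled WT-shARF over WT-shSCR) of each tested member of 34 of the 39 gene lists, with the number tested in brackets, ordered by list median: red points are called higher, blue points lower, grey points not called, and the black bar is the list median. Mitosis lies farthest right with a median of 1.00, and macrophage and myeloid markers farthest left with -1.15.

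Of the 39 lists the lysosome had the most genes called lower. Lysosomes break down proteins, lipids and sugars with acid hydrolases behind a proton pump, and their genes share the CLEAR element read by TFEB and its relatives. Of 46 tested genes 16 were called lower (34.8%, against 4.17% of all genes) and 0 higher, with a median log2 fold change of -0.49, and 42 were below 0. At an unadjusted p under 0.05 the counts were 27 and 0, and with DESeq2 11 and 0. The summed level was 7294 and 7344 CPM in the WT-shSCR libraries and 4617 and 4693 CPM in those labelled WT-shARF. The count was 14 and 17 without WT-shSCR replicate 1 or 2 and 9 without either WT-shARF replicate.

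The CLEAR letters TCACGTGA, searched after the data were seen, were in 7 of 36 lysosome promoters (19.4%), in 2.34% of all promoters and in 3 of 13 called lysosome genes. Of all genes called lower 14 of 343 had them (4.08%), and of genes called higher 3 of 249 (1.2%). The 3 called genes are shown with the element in capitals.
Ctsd, chr7:142387908-142387937, minus strand, motif at -99: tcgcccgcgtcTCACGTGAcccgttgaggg
Ctsa, chr2:164833766-164833795, plus strand, motif at 4: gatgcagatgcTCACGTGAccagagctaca
Atp6v0d1, chr8:105566050-105566079, minus strand, motif at -4: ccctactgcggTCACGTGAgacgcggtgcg
Ctsd, the aspartic protease cathepsin D, stood at 1289 and 1178 CPM in the WT-shSCR libraries and 544 and 518 CPM in those labelled WT-shARF. Its level fell 2.33-fold (log2 fold change -1.22, SE 0.13, edgeR adjusted p = 8.47e-08). Ctsa, a carboxypeptidase that protects other hydrolases, fell 1.77-fold (log2 fold change -0.82, SE 0.16, edgeR adjusted p = 0.000931). Atp6v0d1, a subunit of the proton pump, fell 1.64-fold (log2 fold change -0.71, SE 0.15, edgeR adjusted p = 0.003). Ctsd and Ctsa kept their calls whichever library was left out. The call of Atp6v0d1 was lost without WT-shARF replicate 1 (edgeR adjusted p = 0.0572).

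Other hydrolases and cofactors fell too. Ctsf, cathepsin F, stood at 34.9 and 26.8 against 12.5 and 9.95 CPM (log2 fold change -1.51, SE 0.32, edgeR adjusted p = 0.00297). Ctsb, cathepsin B, stood at 406 and 420.4 against 204 and 224 CPM (log2 fold change -0.94, SE 0.13, edgeR adjusted p = 1.74e-05). Grn, progranulin, stood at 199 and 213 against 112 and 89.5 CPM (log2 fold change -1.05, SE 0.16, edgeR adjusted p = 4.07e-05). The groups did not overlap in the 3 genes. Psap, the precursor of the saposins that present lipids to hydrolases, stood at 616 and 710.2 against 402 and 398 CPM (log2 fold change -0.73, SE 0.13, edgeR adjusted p = 0.000472). Ctsl, Lamp1 and Npc2 (a protease, a membrane protein and a cholesterol carrier) fell 1.61-fold, 1.46-fold and 1.77-fold (edgeR adjusted p = 0.00249, 0.00668 and 0.00457). Sqstm1, the autophagy receptor p62, fell 1.53-fold (edgeR adjusted p = 0.00261). Ctsb, Grn and Psap kept their calls whichever library was left out. The call of Ctsf was lost without WT-shSCR replicate 1 or WT-shARF replicate 2 (edgeR adjusted p up to 0.0622). The calls of Ctsl, Npc2 and Sqstm1 were lost without WT-shARF replicate 1 (edgeR adjusted p = 0.125, 0.183 and 0.129). The call of Lamp1 was lost without WT-shARF replicate 1 or 2 (edgeR adjusted p up to 0.125).

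Markers of macrophages and other myeloid cells, which are rich in lysosomes, were lower in the same libraries. Of 26 tested, 10 were called lower (38.5%, against 4.17% of all genes) and 0 higher, with a median log2 fold change of -1.15 and 24 below 0 (19 lower and 0 higher at an unadjusted p under 0.05, 5 and 0 with DESeq2). Their summed level over 31 markers was 969.7 and 929.5 CPM in WT-shSCR and 480.1 and 381 CPM in those labelled WT-shARF, and 0 of the 31 were at 0 in all 4 libraries. In such bulk samples fewer cells of a type and less RNA per cell cannot be told apart. The part of these markers in the fall of the lysosome genes was not tested.

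Lyz2, lysozyme and a near copy of Lyz1, stood at 219.8 and 249 CPM in the WT-shSCR libraries and 65.0 and 43.3 CPM in those labelled WT-shARF, and fell 4.44-fold (log2 fold change -2.15, SE 0.18, edgeR adjusted p = 6.68e-10). C1qa, C1qb and C1qc, the chains of complement C1q made by macrophages, gave 72.0 and 81.6 against 34.1 and 33.6 CPM (log2 fold change -1.17, SE 0.20, edgeR adjusted p = 0.00033) for C1qa, and log2 fold changes of -1.17 and -1.20 for C1qb and C1qc (edgeR adjusted p = 0.00048 and 0.00113). Csf1r, the receptor of macrophage growth factor, gave 103 and 106 against 65.6 and 48.8 CPM (log2 fold change -0.90, SE 0.19, edgeR adjusted p = 0.00247). Each of these was lower in both libraries labelled WT-shARF. Mrc1, a scavenger receptor for mannose, had 34 and 24 reads against 1 and 18 (log2 fold change -2.28, SE 0.57, edgeR adjusted p = 0.0113). Cd68 had 32 and 12 reads against 2 and 12 (log2 fold change -2.20, SE 0.61, edgeR adjusted p = 0.0229), and Tlr8, a sensor of RNA in endosomes, 14 and 16 reads against 4 and 2 (log2 fold change -2.80, SE 0.76, edgeR adjusted p = 0.0213). Ptprc, the CD45 of all white blood cells, gave 8.43 and 10.4 against 7.59 and 3.79 CPM (log2 fold change -0.81, SE 0.54, edgeR adjusted p = 0.428), and Adgre1, the F4/80 antigen, 46.0 and 44.4 against 33.6 and 20.8 CPM (log2 fold change -0.79, SE 0.25, edgeR adjusted p = 0.0512). Lyz1, Aif1, Fcgr2b, Cd74 and Ms4a6c had 0 to 9 reads per library and were not tested. Lyz2 and C1qa kept their calls whichever library was left out. The calls of C1qb and Csf1r were lost without WT-shARF replicate 2 (edgeR adjusted p = 0.061 and 0.183). The call of C1qc was lost without WT-shSCR replicate 1 (edgeR adjusted p = 0.0912). The call of Mrc1 was lost without WT-shARF replicate 1 (edgeR adjusted p = 0.0937). The call of Cd68 was lost without WT-shSCR replicate 1 or either WT-shARF replicate (edgeR adjusted p up to 0.364). The call of Tlr8 was lost without WT-shSCR replicate 1, WT-shSCR replicate 2 or WT-shARF replicate 2 (edgeR adjusted p up to 0.464). The count of lower markers was 5, 11, 9 and 4 without WT-shSCR replicate 1, WT-shSCR replicate 2, WT-shARF replicate 1 and WT-shARF replicate 2.

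Clec4n and AF251705, known from the same cells, were among the furthest falls outside the marker list. Those falls also included Sult2a3, Angptl7, Trpm7, Duox2, Mt2, Dzank1, Fshb and Slc6a12, given elsewhere and not grouped with these cells. Clec4n, dectin-2, had 19 and 16 reads against 2 and 4 (log2 fold change -3.07, SE 0.71, edgeR adjusted p = 0.00591). AF251705, a CD300 family receptor, had 14 and 9 reads against 0 and 4, an inverse ratio of summed reads per library size of 8.42 (95% counting interval 2.88 to 33.5). Cd36, a scavenger receptor of macrophages and fat cells, was named from the adipocyte list and not as a furthest fall. It stood at 16.1 and 17.6 against 4.88 and 4.74 CPM (log2 fold change -1.80, SE 0.46, edgeR adjusted p = 0.0131). Reads in the libraries labelled WT-shARF were below both controls in these genes. Of the other cell types, 3 of 3 tested skeletal muscle markers, 2 of 5 keratin and epithelial markers (Krt19 and Esrp1) and 1 of 5 adipocyte markers (Cd36) were called lower, where 4.17% of all genes were. The last 2 lists were mixed. In the keratin and epithelial list 2 of 5 had a log2 fold change above 0, up to 1.25, and in the adipocyte list 2 of 5, up to 0.79. DESeq2 called 0 in either of these lists. Of 6 endothelial markers edgeR called 0 (0 at an unadjusted p under 0.05 and 0 with DESeq2). Fibroblast markers summed to 24436 and 27994 CPM in WT-shSCR and to 25239 and 25251 CPM in those labelled WT-shARF, with 3 of 17 called higher (Col1a1, Col3a1 and Postn) and 1 lower (Fn1), where the higher count was 5 without WT-shSCR replicate 2. Pdgfra and Lum, which usually mark fibroblasts, had 1 to 19 reads per library and were not tested. The call of Clec4n was lost on leaving out any 1 of the 4 libraries (edgeR adjusted p up to 0.173). The call of AF251705 was lost without WT-shSCR replicate 2 or either WT-shARF replicate (edgeR adjusted p up to 0.286). The calls of Cd36 and Esrp1 were lost without WT-shSCR replicate 1 or WT-shARF replicate 2 (edgeR adjusted p up to 0.121 and 0.434). The call of Krt19 was lost without WT-shSCR replicate 1 or either WT-shARF replicate (edgeR adjusted p up to 0.317).

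**Figure D3:**
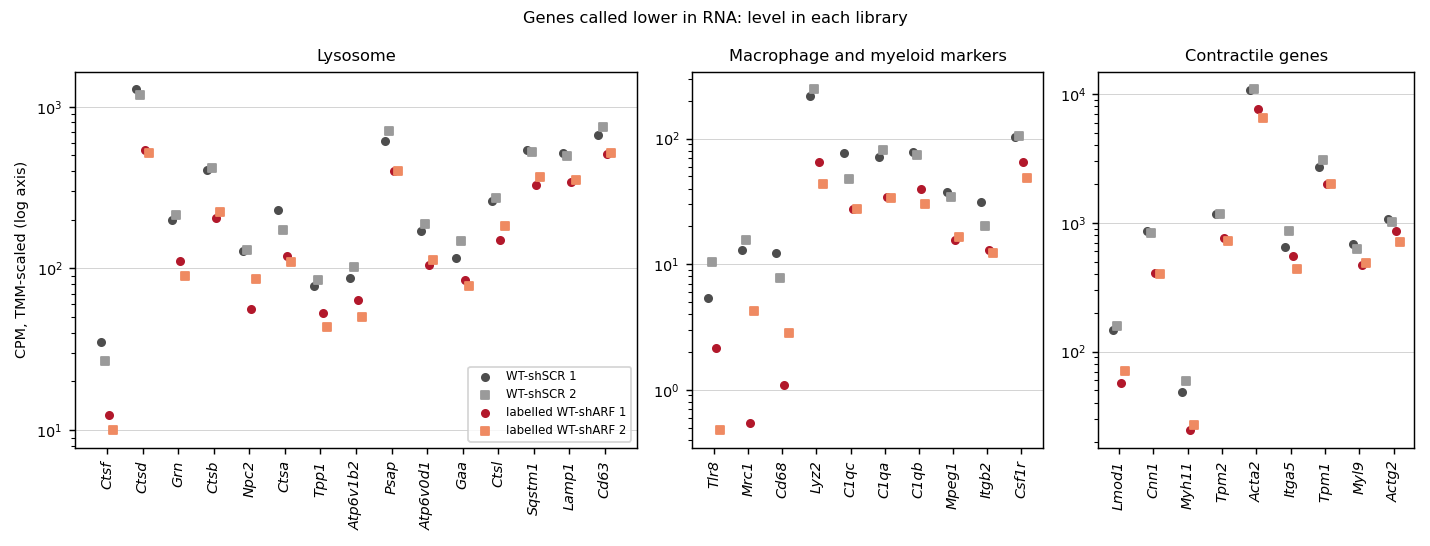
Level in each library, in CPM on log axes, of genes called lower, 15 of the 16 lysosome genes and all called macrophage and myeloid markers and contractile genes: circles are replicate 1, squares replicate 2, greys WT-shSCR and reds labelled WT-shARF. Both red points lie below both grey points in each gene shown; Lyz2 stands at 219.8 and 249 against 65.0 and 43.3 CPM and Cnn1 at 866 and 837 against 411 and 403 CPM.

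The contractile genes of smooth muscle, which activated fibroblasts also express, gave 9 lower (27.3%, against 4.17% of all genes) and 0 higher calls among 33, with a median log2 fold change of -0.23 (13 and 1 at an unadjusted p under 0.05, 9 and 0 with DESeq2). Lmod1, an actin nucleator, stood at 148 and 159 CPM in the WT-shSCR libraries and 57.4 and 70.8 CPM in those labelled WT-shARF, and fell 2.35-fold (log2 fold change -1.24, SE 0.17, edgeR adjusted p = 1.2e-05). Cnn1, calponin, stood at 866 and 837 against 411 and 403 CPM and fell 2.09-fold (log2 fold change -1.07, SE 0.13, edgeR adjusted p = 1.05e-06). Myh11, the smooth muscle myosin, stood at 48.6 and 58.7 against 24.4 and 27.0 CPM and fell 2.05-fold (log2 fold change -1.04, SE 0.23, edgeR adjusted p = 0.00435). The groups did not overlap in these genes. Acta2, the actin that marks myofibroblasts, stood at 10707 and 10938 against 7583 and 6545 CPM (log2 fold change -0.62, SE 0.13, edgeR adjusted p = 0.00258). Tpm2 and Tpm1, tropomyosins, fell 1.59-fold and 1.44-fold (edgeR adjusted p = 0.00072 and 0.00795). Tagln, transgelin, gave 3814 and 3491 against 2998 and 2641 CPM and did not pass (log2 fold change -0.37, SE 0.13, edgeR adjusted p = 0.0713). Lmod1, Cnn1 and Myh11 kept their calls whichever library was left out. The calls of Acta2 and Tpm2 were lost without WT-shARF replicate 2 (edgeR adjusted p = 0.13 and 0.0538). The call of Tpm1 was lost without WT-shARF replicate 1 or 2 (edgeR adjusted p up to 0.13). The count was 8 and 10 without WT-shSCR replicate 1 or 2, and 6 and 3 without WT-shARF replicate 1 or 2.

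The 3 tested skeletal muscle markers were called lower. Des, desmin, stood at 105 and 94.6 against 45 and 46.7 CPM (log2 fold change -1.13, SE 0.19, edgeR adjusted p = 0.000192). Ttn, titin, stood at 5234 and 4853 against 2862 and 2348 CPM (log2 fold change -0.95, SE 0.13, edgeR adjusted p = 1.2e-05), although its footprints were few, at 6.87 and 31.9 against 11.9 and 10.6 CPM. Acta1, skeletal actin, stood at 92.7 and 91.4 against 63.4 and 44.3 CPM (log2 fold change -0.81, SE 0.20, edgeR adjusted p = 0.00907). The regulators Myod1, Myog, Myf5 and Myf6 had 0 to 7 reads per library. Of 31 early targets of YAP and TGF-beta, 6 were called lower (19.4%, against 4.17% of all genes) and 0 higher, with a median log2 fold change of -0.22 (10 and 0 at an unadjusted p under 0.05, 4 and 0 with DESeq2). Ankrd1 stood at 252 and 277 against 171 and 180.0 CPM (log2 fold change -0.59, SE 0.14, edgeR adjusted p = 0.00757). F3, tissue factor, stood at 52.8 and 64.6 against 38.5 and 34.1 CPM (log2 fold change -0.69, SE 0.22, edgeR adjusted p = 0.0448). Id1 and Id3, inhibitors of bHLH factors, fell 1.56-fold and 1.46-fold (edgeR adjusted p = 0.0319 and 0.014). Ctgf and Cyr61, the usual readouts of YAP, gave log2 fold changes of -0.05 and -0.19 (edgeR adjusted p = 0.878 and 0.406). Des and Ttn kept their calls whichever library was left out. The call of Acta1 was lost without WT-shARF replicate 2 (edgeR adjusted p = 0.367). The calls of Ankrd1 and Id3 were lost without WT-shARF replicate 1 or 2 (edgeR adjusted p up to 0.126 and 0.265). The call of F3 was lost without WT-shSCR replicate 2 or either WT-shARF replicate (edgeR adjusted p up to 0.387). The call of Id1 was lost without WT-shSCR replicate 1 or WT-shARF replicate 2 (edgeR adjusted p up to 0.445). Without WT-shARF replicate 2 the count for YAP and TGF-beta targets was 0, and without WT-shARF replicate 1 it was 1. The CArG letters that serum response factor binds were in 5 of 30 contractile promoters (16.7%) and in 1.62% of all.

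Matrix genes were called in both directions. Of 32 collagen chains 4 were called higher (12.5%, against 3.11% of all genes) and 2 lower (6.25%, against 4.17%), with a median log2 fold change of 0.22. Col3a1, of the fibrils of soft tissue, stood at 679.8 and 698 CPM in the WT-shSCR libraries and 1349 and 1704 CPM in those labelled WT-shARF, and rose 2.22-fold (log2 fold change 1.15, SE 0.13, edgeR adjusted p = 5.74e-07). Col1a1, the main fibril chain, stood at 3559 and 4058 against 5237 and 5189.9 CPM (log2 fold change 0.45, SE 0.13, edgeR adjusted p = 0.0258). Col11a1 and Col6a3 rose 1.57-fold and 1.46-fold (edgeR adjusted p = 0.00241 and 0.00917). Col2a1, the collagen of cartilage, stood at 192 and 180.2 against 114 and 120.3 CPM and fell (log2 fold change -0.67, SE 0.15, edgeR adjusted p = 0.00475). The remaining lower call, Col4a4, overlapped between groups, with 170 and 28 reads against 31 and 100. Of the basement membrane linkers, Nid2 rose 1.54-fold and Nid1 fell 1.42-fold (edgeR adjusted p = 0.038 and 0.0113), the only calls among 13 laminin, perlecan and nidogen genes. That is 7.69% in each direction, where 3.11% of all genes were called higher and 4.17% lower. The count of higher collagens was 2 and 1 without WT-shARF replicate 1 or 2, and that of lower ones 1, 2, 0 and 1 without WT-shSCR replicate 1, WT-shSCR replicate 2, WT-shARF replicate 1 and WT-shARF replicate 2. Col3a1 kept its call whichever library was left out. The calls of Col1a1, Col2a1 and Nid1 were lost without WT-shARF replicate 1 or 2 (edgeR adjusted p up to 0.177, 0.0782 and 0.236). The call of Col11a1 was lost without WT-shARF replicate 2 (edgeR adjusted p = 0.125). The calls of Col6a3 and Nid2 were lost without WT-shSCR replicate 1 or either WT-shARF replicate (edgeR adjusted p up to 0.135 and 0.307). The call of Col4a4 was lost without WT-shSCR replicate 1 or WT-shARF replicate 1 (edgeR adjusted p up to 0.87).

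Among 37 matrix glycoproteins and proteoglycans 5 were called higher (13.5%, against 3.11% of all genes) and 7 lower (18.9%, against 4.17%), and DESeq2 called 2 and 6. The higher count was 2, 7, 3 and 1 and the lower 7, 6, 5 and 5 without WT-shSCR replicate 1, WT-shSCR replicate 2, WT-shARF replicate 1 and WT-shARF replicate 2. Efemp1, fibulin-3, stood at 6.13 and 5.87 against 17.3 and 21.6 CPM (log2 fold change 1.7, SE 0.42, edgeR adjusted p = 0.00966). Postn, periostin, stood at 264 and 269 against 416 and 472 CPM (log2 fold change 0.74, SE 0.13, edgeR adjusted p = 0.000498). Ecm1 stood at 26.8 and 28.7 against 9.21 and 8.53 CPM (log2 fold change -1.65, SE 0.35, edgeR adjusted p = 0.00252). Spp1, osteopontin, stood at 423 and 413 against 208 and 219.8 CPM (log2 fold change -0.97, SE 0.13, edgeR adjusted p = 1.2e-05). The first pair was higher and the second lower in both libraries labelled WT-shARF. Mgp, an inhibitor of calcification, stood at 184 and 173 against 100.3 and 103 CPM (log2 fold change -0.82, SE 0.15, edgeR adjusted p = 0.000789). Fn1, fibronectin, stood at 7293 and 10199 against 5779 and 4787 CPM (log2 fold change -0.73, SE 0.15, edgeR adjusted p = 0.00151). Postn, Ecm1, Spp1 and Mgp kept their calls whichever library was left out. The calls of Efemp1 and Fn1 were lost without WT-shARF replicate 2 (edgeR adjusted p = 0.199 and 0.0578).

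Of 38 matrix proteases, their inhibitors and lysyl oxidases, 6 were called lower (15.8%, against 4.17% of all genes) and 2 higher (5.26%, against 3.11%). Serpine2, an inhibitor of thrombin and plasminogen activators, stood at 119.9 and 140.3 against 62.9 and 53.8 CPM (log2 fold change -1.16, SE 0.18, edgeR adjusted p = 6.92e-05). Plau, urokinase, stood at 178 and 176 against 95.9 and 101 CPM (log2 fold change -0.84, SE 0.15, edgeR adjusted p = 0.000586). Bmp1, which trims procollagen, stood at 352 and 346 against 205 and 217 CPM (log2 fold change -0.72, SE 0.13, edgeR adjusted p = 0.000647). These 3 were lower in both libraries labelled WT-shARF. Loxl2 and Timp2 fell 1.36-fold and 1.47-fold (edgeR adjusted p = 0.0274 and 0.00989). Adamts5 and Adamts1, which cut aggrecan and versican, rose 2.04-fold and 1.69-fold (edgeR adjusted p = 0.00132 and 0.00297). The lower count was 3 without WT-shARF replicate 2 and the higher count 0 without it, 3 without WT-shSCR replicate 2. Serpine2, Plau and Bmp1 kept their calls whichever library was left out. The call of Loxl2 was lost without WT-shSCR replicate 2 or either WT-shARF replicate (edgeR adjusted p up to 0.313). The call of Timp2 was lost without WT-shSCR replicate 1 or either WT-shARF replicate (edgeR adjusted p up to 0.156). The calls of Adamts5 and Adamts1 were lost without WT-shARF replicate 2 (edgeR adjusted p = 0.0541 and 0.153).

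Metabolic genes that were called were mostly lower. Of 75 genes of oxidative phosphorylation encoded in the nucleus 7 were lower (9.33%, against 4.17% of all genes) and 0 higher, with a median log2 fold change of -0.15 (17 and 2 at an unadjusted p under 0.05, 4 and 0 with DESeq2). Ndufa7 and Ndufb7, of complex I, stood at 85.4 and 86.8 against 46.6 and 44.3 CPM and 85.0 and 72.5 against 36.3 and 49.5 CPM (log2 fold changes -0.93 and -0.85, edgeR adjusted p = 0.00216 and 0.00745). Sdhc, of complex II, stood at 118 and 112 against 59.6 and 69.6 CPM (log2 fold change -0.82, SE 0.18, edgeR adjusted p = 0.00317). Cox4i1, of complex IV, stood at 591 and 524 against 367 and 348 CPM (log2 fold change -0.64, SE 0.13, edgeR adjusted p = 0.00179). These 4 did not overlap between groups. In footprints 1 of the 75 was called lower and 3 higher, where 5.5% of all genes tested in footprints were lower and 5.63% higher. The count was 3, 10, 2 and 2 without WT-shSCR replicate 1, WT-shSCR replicate 2, WT-shARF replicate 1 and WT-shARF replicate 2. The calls of Ndufa7 and Cox4i1 were lost without WT-shARF replicate 2 (edgeR adjusted p = 0.0737 and 0.0804). The call of Ndufb7 was lost without WT-shSCR replicate 1 or WT-shARF replicate 1 (edgeR adjusted p up to 0.174). The call of Sdhc was lost without WT-shARF replicate 1 (edgeR adjusted p = 0.0752).

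Of 25 antioxidant genes of NRF2, 3 were lower (12%, against 4.17% of all genes) and 0 higher, with a median log2 fold change of -0.34 (10 and 1 at an unadjusted p under 0.05, 3 and 0 with DESeq2). Ftl1 and Fth1, the ferritin chains that store iron, stood at 3310.0 and 2896 against 2029 and 1956 CPM and 278 and 269.6 against 184 and 169 CPM (log2 fold changes -0.64 and -0.64, edgeR adjusted p = 0.00143 and 0.00356). Their footprints gave log2 fold changes of -0.06 and -0.01, and both genes have many processed copies in the genome, so their counts are uncertain. Taldo1, transaldolase of the pentose phosphate pathway, fell 1.45-fold (log2 fold change -0.53, SE 0.14, edgeR adjusted p = 0.0139). The antioxidant response letters TGACNNNGC were in 9 of 21 NRF2 promoters (42.9%), in 16.9% of all and in 0 of the 3 called genes. Without 1 library the NRF2 count was 5, 3, 2 and 0 without WT-shSCR replicate 1, WT-shSCR replicate 2, WT-shARF replicate 1 and WT-shARF replicate 2. Of 23 glycolysis and hypoxia genes 3 were lower (13%, against 4.17% of all genes) and 0 higher, with a median of -0.23 (9 and 0 at an unadjusted p under 0.05, 3 and 0 with DESeq2). Hk1, hexokinase, stood at 133 and 131 against 91.0 and 79.6 CPM (log2 fold change -0.64, SE 0.17, edgeR adjusted p = 0.0154). Gpi1 and Aldoa, the isomerase and aldolase that follow it, fell 1.39-fold and 1.43-fold (edgeR adjusted p = 0.0181 and 0.0113). The glycolysis count, with the libraries left out in the same order, was 2, 6, 1 and 0. The calls of Ftl1, Fth1 and Aldoa were lost without WT-shARF replicate 2 (edgeR adjusted p = 0.0582, 0.134 and 0.319). The calls of Taldo1 and Gpi1 were lost without WT-shSCR replicate 1 or either WT-shARF replicate (edgeR adjusted p up to 0.267 and 0.249). The call of Hk1 was lost without WT-shARF replicate 1 or 2 (edgeR adjusted p up to 0.284).

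Lipid genes gave few calls. Of 24 cholesterol genes Msmo1, a sterol oxidase, was the 1 called lower, a share of 4.17% that equals the 4.17% of all genes (93.4 and 86.8 against 43.9 and 57.8 CPM, log2 fold change -0.80, SE 0.19, edgeR adjusted p = 0.0077). In the same list 1 other gene was called higher (4.17%, against 3.11% of all genes). At an unadjusted p under 0.05 the cholesterol counts were 1 higher and 5 lower, and with DESeq2 0 and 0. The sterol response letters TCACNCCAC were in 1 of 16 cholesterol promoters (6.25%) and in 1.44% of all. Of 30 fatty acid and lipid droplet genes 2 were called higher (6.67%, against 3.11% of all genes) and 0 lower (4 and 3 at an unadjusted p under 0.05, 2 and 0 with DESeq2). Fads2, a desaturase, stood at 89.2 and 69.2 against 146 and 129.8 CPM (log2 fold change 0.78, SE 0.17, edgeR adjusted p = 0.00407). Fabp5, a fatty acid carrier, stood at 115 and 91.4 against 188 and 165 CPM (log2 fold change 0.76, SE 0.16, edgeR adjusted p = 0.00256). Neither gene overlapped between groups. Fabp5 kept its call whichever library was left out. The calls of Msmo1 and Fads2 were lost without WT-shARF replicate 1 (edgeR adjusted p = 0.18 and 0.0588).

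Imprinted genes of fetal growth, expressed from 1 parental allele, were lower where called. Of 15 tested, 5 were called lower (33.3%, against 4.17% of all genes) and 0 higher, with a median log2 fold change of -0.42 (7 and 1 at an unadjusted p under 0.05, 3 and 0 with DESeq2). Igf2, the fetal growth factor, stood at 113 and 121 CPM in the WT-shSCR libraries and 48.8 and 54.0 CPM in those labelled WT-shARF, and fell 2.25-fold (log2 fold change -1.17, SE 0.18, edgeR adjusted p = 7.14e-05). Peg3, a zinc finger regulator, stood at 67.0 and 79.0 against 37.9 and 35.5 CPM (log2 fold change -0.99, SE 0.21, edgeR adjusted p = 0.00224). Impact, an inhibitor of the GCN2 kinase, stood at 40.6 and 50.3 against 16.8 and 25.8 CPM (log2 fold change -1.02, SE 0.26, edgeR adjusted p = 0.0117). In all 3 the groups were apart. Ndn, necdin, stood at 57.4 and 69.8 against 32.0 and 37.2 CPM (log2 fold change -0.85, SE 0.21, edgeR adjusted p = 0.0113), and Grb10, an adaptor that restrains insulin signalling, fell 1.44-fold (log2 fold change -0.52, SE 0.13, edgeR adjusted p = 0.0115). Of 17 genes of the IGF system, Igf2 and Igfbp2, a binding protein (221 and 201 against 158 and 149.7 CPM, log2 fold change -0.46, SE 0.14, edgeR adjusted p = 0.0473), were the 2 called, both lower (11.8%, against 4.17% of all genes). Igf2 kept its call whichever library was left out. The call of Peg3 was lost without WT-shARF replicate 2 (edgeR adjusted p = 0.0748). The call of Impact was lost without WT-shARF replicate 1 (edgeR adjusted p = 0.156). The call of Ndn was lost without WT-shSCR replicate 2 or either WT-shARF replicate (edgeR adjusted p up to 0.136). The call of Grb10 was lost without WT-shARF replicate 1 or 2 (edgeR adjusted p up to 0.172). The call of Igfbp2 was lost without WT-shSCR replicate 1 or either WT-shARF replicate (edgeR adjusted p up to 0.383). The imprinted count was 6, 4, 2 and 2 without WT-shSCR replicate 1, WT-shSCR replicate 2, WT-shARF replicate 1 and WT-shARF replicate 2.

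Signalling genes that answer quickly to stimuli were also lower where called. Of 21 immediate early genes 4 were lower (19%, against 4.17% of all genes) and 0 higher (7 and 0 at an unadjusted p under 0.05, 1 and 0 with DESeq2). Maff, a small MAF factor, stood at 45.6 and 43.1 against 15.7 and 23.9 CPM (log2 fold change -1.11, SE 0.26, edgeR adjusted p = 0.00623). Dusp1, the phosphatase of MAP kinases, stood at 91.1 and 87.5 against 54.7 and 46.9 CPM (log2 fold change -0.83, SE 0.19, edgeR adjusted p = 0.00529). Zfp36, which destabilises AU-rich mRNAs, and Csrnp1 fell 1.69-fold and 1.72-fold (edgeR adjusted p = 0.0314 and 0.04). Ier3, of the MAPK feedback list, stood at 83.1 and 81.6 against 33.1 and 34.8 CPM (log2 fold change -1.27, SE 0.20, edgeR adjusted p = 9.2e-05), and was its 1 call among 20 (5%, against 4.17% of all genes called lower). Of 21 chemokines and inflammatory mediators 2 were called higher (9.52%, against 3.11% of all genes) and 1 lower (4.76%, against 4.17%). Ptgs2, cyclooxygenase-2 of prostaglandin synthesis, stood at 328 and 393 against 156 and 187 CPM (log2 fold change -1.06, SE 0.14, edgeR adjusted p = 9.82e-06). The libraries labelled WT-shARF were below both controls in these genes. Vcam1, an adhesion molecule, and Cxcl12, a chemokine, rose 1.93-fold and 1.62-fold (edgeR adjusted p = 0.00221 and 0.0406). The immediate early count was 2 without WT-shARF replicate 1 and 2 without WT-shARF replicate 2. Ier3 and Ptgs2 kept their calls whichever library was left out. The call of Maff was lost without WT-shARF replicate 1 (edgeR adjusted p = 0.0954). The calls of Dusp1 and Vcam1 were lost without WT-shARF replicate 2 (edgeR adjusted p = 0.183 and 0.145). The call of Zfp36 was lost without WT-shSCR replicate 1 or WT-shARF replicate 2 (edgeR adjusted p up to 0.526). The call of Csrnp1 was lost without WT-shSCR replicate 1 or either WT-shARF replicate (edgeR adjusted p up to 0.234). The call of Cxcl12 was lost without WT-shSCR replicate 2 or WT-shARF replicate 2 (edgeR adjusted p up to 0.511).

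Some factors of vessels, patterning and transport were called singly. Of 19 angiogenic factors, Sema3a was called higher (5.26%, against 3.11% of all genes) and Pdgfb and Angptl7 lower (10.5%, against 4.17%). Pdgfb, a growth factor, stood at 12.3 and 12.4 against 3.79 and 2.37 CPM (log2 fold change -2.07, SE 0.55, edgeR adjusted p = 0.0183). Sema3a, a guidance factor, rose 1.69-fold (log2 fold change 0.76, SE 0.19, edgeR adjusted p = 0.0125). Wisp1, a matricellular target of Wnt signalling, stood at 57.1 and 79.0 against 104 and 149 CPM (log2 fold change 0.93, SE 0.19, edgeR adjusted p = 0.00224). It was the 1 call among 19 Wnt genes (5.26%, against 3.11% of all genes called higher). Hoxd10, a positional factor, stood at 927 and 796 against 558 and 523 CPM (log2 fold change -0.67, SE 0.13, edgeR adjusted p = 0.000931), with footprints of only 5.56 and 4.33 against 0.36 and 4.35 CPM. It was the 1 call among 17 Hox genes (5.88%, against 4.17% of all genes called lower). Slc39a14, an importer of zinc and iron, stood at 87.3 and 142 against 34.1 and 41.4 CPM (log2 fold change -1.56, SE 0.21, edgeR adjusted p = 1.16e-05). Slc9a7, an exchanger of the trans-Golgi, and Slc48a1, a haem transporter, fell 2.51-fold and 2.09-fold (edgeR adjusted p = 0.0077 and 0.0199). Of 159 solute carriers 6 were called lower (3.77%) and 3 higher (1.89%), against 4.17% and 3.11% of all genes, and DESeq2 called 1 and 1. The lower count was 4, 9, 6 and 3 and the higher 4, 6, 1 and 1 without WT-shSCR replicate 1, WT-shSCR replicate 2, WT-shARF replicate 1 and WT-shARF replicate 2. Of 171 zinc finger genes named Zfp 2 were lower (1.17%) and 1, Zfp281, higher (0.585%), below the 4.17% and 3.11% of all genes. Zfp281 stood at 20.3 and 22.8 against 45 and 37.7 CPM (log2 fold change 0.93, SE 0.26, edgeR adjusted p = 0.0228). Slc39a14 kept its call whichever library was left out. The call of Pdgfb was lost without WT-shSCR replicate 1, WT-shSCR replicate 2 or WT-shARF replicate 2 (edgeR adjusted p up to 0.267). The calls of Sema3a and Zfp281 were lost without WT-shSCR replicate 1 or either WT-shARF replicate (edgeR adjusted p up to 0.144 and 0.169). The calls of Wisp1, Hoxd10 and Slc9a7 were lost without WT-shARF replicate 2 (edgeR adjusted p = 0.2, 0.0593 and 0.0959). The call of Slc48a1 was lost without WT-shSCR replicate 1 or WT-shARF replicate 2 (edgeR adjusted p up to 0.365).

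In 5 lists edgeR made 0 calls. The type I interferon response gave 1 gene higher and 0 lower at an unadjusted p under 0.05 among 23, ER chaperones 1 and 1 among 24, ribosomal proteins 0 and 14 among 79, and genes with a 5′ terminal oligopyrimidine tract outside the ribosome 1 and 0 among 17. DESeq2 called 0 in each of these lists, as in the endothelial markers. The interferon-stimulated response element was in 9 of 20 promoters of the interferon list (45%) and in 3.52% of all. For ribosomal proteins 9 were called lower without WT-shSCR replicate 2. In footprints 59 of the 79 were called higher, with a median log2 fold change of 0.33, where 5.63% of all genes tested in footprints were. Of the 17 genes with such a tract outside the ribosome 10 were called higher in footprints, with a median of 0.22.

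The furthest changes by size, among called genes with at least 5 CPM in the higher group and no overlap, were mostly in genes with few reads. 1700019B03Rik had 1 and 0 reads against 22 and 49, a ratio per library size of 48.5 (95% counting interval 8.42 to 1941). Atcay, caytaxin, had 2 and 1 reads against 19 and 32, a ratio of 11.6 (95% counting interval 3.75 to 58.1), and Olfr1325, an olfactory receptor, 3 and 0 reads against 17 and 19, a ratio of 8.19 (95% counting interval 2.59 to 41.6). These intervals cover counting error only. Fam132b, erythroferrone, had 7 and 6 reads against 34 and 89 (log2 fold change 2.63, SE 0.48, edgeR adjusted p = 0.000549), and its footprints rose too (log2 fold change 2.19, edgeR adjusted p = 5.31e-06). Crct1, a protein of the cornified skin layer, had 18 and 3 reads against 58 and 87 (log2 fold change 2.36, SE 0.44, edgeR adjusted p = 0.000773). Adrb1, a receptor of noradrenaline, and Gas1, a growth arrest gene, had 4 and 2 reads against 15 and 34 and 7 and 2 reads against 21 and 41 (log2 fold changes 2.45 and 2.26, edgeR adjusted p = 0.0248 and 0.02). 1700019B03Rik, Fam132b and Crct1 kept their calls whichever library was left out. The call of Atcay was lost without WT-shSCR replicate 1 or either WT-shARF replicate (edgeR adjusted p up to 0.0611). The calls of Olfr1325, Adrb1 and Gas1 were lost on leaving out any 1 of the 4 libraries (edgeR adjusted p up to 0.318, 0.286 and 0.17).

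Cenpp, of the inner kinetochore, had 7 and 4 reads against 19 and 58 (log2 fold change 2.19, SE 0.56, edgeR adjusted p = 0.0139). Prr11, a gene of the late cell cycle, had 13 and 3 reads against 30 and 65 (log2 fold change 2.06, SE 0.50, edgeR adjusted p = 0.00936). Dusp19 and D16Ertd472e had 4 and 6 reads against 17 and 43 and 9 and 2 reads against 16 and 47 (log2 fold changes 1.95 and 1.94, edgeR adjusted p = 0.048 and 0.0426). The rule that named these 4 genes required no overlap between groups. Among the falls, Angptl7, an angiopoietin-like protein, had 25 and 22 reads against 4 and 1, an inverse ratio of 13.8 (95% counting interval 5.50 to 44.4), and 1300017J02Rik had 49 and 7 reads against 0 and 5, an inverse ratio of 16.4 (95% counting interval 6.63 to 52.5). 1300017J02Rik kept its call in every such fit that tested it. The call of Cenpp was lost without WT-shSCR replicate 1 or WT-shARF replicate 2 (edgeR adjusted p up to 0.312). The calls of Prr11 and Angptl7 were lost without WT-shARF replicate 2 (edgeR adjusted p = 0.0794 and 0.126). The call of Dusp19 was lost without WT-shSCR replicate 1 or either WT-shARF replicate (edgeR adjusted p up to 0.393). The call of D16Ertd472e was lost on leaving out any 1 of the 4 libraries (edgeR adjusted p up to 0.435).

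Several falls came with a spread inside the control group. Trpm7, a channel kinase for magnesium, stood at 2267 and 899 CPM in the WT-shSCR libraries and 161 and 159 CPM in those labelled WT-shARF. It fell 9.94-fold (log2 fold change -3.31, SE 0.23, edgeR adjusted p = 2.02e-11), though the controls differed more between themselves than did the libraries labelled WT-shARF. Sult2a3, a sulfotransferase, had 347 and 71 reads against 13 and 19 (log2 fold change -4.09, SE 0.37, edgeR adjusted p = 3.12e-09). Duox2, a dual oxidase, had 142 and 54 reads against 14 and 11 (log2 fold change -3.38, SE 0.38, edgeR adjusted p = 3.83e-07), Dzank1 422 and 122 reads against 21 and 72 (log2 fold change -3.04, SE 0.27, edgeR adjusted p = 2e-09) and Fshb, a pituitary hormone chain, 68 and 16 reads against 4 and 10 (log2 fold change -3.02, SE 0.54, edgeR adjusted p = 0.00048). In each of these the first control was the highest of the 4 libraries. Zfp934 stood at 635 and 343 against 147 and 82.2 CPM (log2 fold change -2.14, edgeR adjusted p = 3.01e-08). Slc6a12, a betaine transporter, had controls that lay closer together, at 12.6 and 15.0 against 2.17 and 1.89 CPM (log2 fold change -2.75, edgeR adjusted p = 0.00233). In Arf-/--shSCR cells reads of replicates 1 and 2 were 1158 and 4766 for Trpm7, 48 and 308 for Sult2a3, 40 and 219 for Duox2, 835 and 3148 for Zfp934 and 14 and 128 for Slc6a12. They were 103 and 288 for Dzank1 and 36 and 53 for Fshb. Trpm7 footprints were 129 and 92.5 against 61.6 and 51.4 CPM (log2 fold change -0.99, edgeR adjusted p = 0.00015), and those of Sult2a3, Duox2, Fshb and Slc6a12 were too few to test. Trpm7, Sult2a3, Duox2, Dzank1 and Zfp934 kept their calls whichever library was left out. The call of Fshb was lost without WT-shSCR replicate 1 (edgeR adjusted p = 0.189). The call of Slc6a12 was lost without WT-shARF replicate 2 (edgeR adjusted p = 0.0538).

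Ribosome footprints offered a second readout of the same groups in separate libraries. No source states that the assays used separate cultures, so footprints do not count as further replicates. Of the 327 genes called higher in RNA, 322 could be tested in footprints, 170 were called higher there (52.8%, against 5.63% of all genes tested in footprints) and 0 lower, and 307 had the same sign. Of the 438 lower genes 402 could be tested, 225 were called lower (56%, against 5.5% of all) and 1 higher, and 381 had the same sign. The 1 exception was Nedd8, the ubiquitin-like modifier, at 65.9 and 75.7 against 48.8 and 42.2 CPM in RNA (log2 fold change -0.64, SE 0.20, edgeR adjusted p = 0.0451) and 54.0 and 65.0 against 73.5 and 100.3 CPM in footprints (log2 fold change 0.56, edgeR adjusted p = 0.0399). The call of Nedd8 was lost without WT-shSCR replicate 2 or either WT-shARF replicate (edgeR adjusted p up to 0.437). Over the genes called in RNA the median log2 fold change was 0.85 in RNA and 0.60 in footprints for the higher and -0.78 and -0.56 for the lower. Across the 9775 genes tested in both, Pearson's r of the fold changes was 0.51 and Spearman's rho 0.48, which describes genes and not replicates.

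By list, 54 of the 75 mitosis genes were called higher in footprints and 0 lower, with a median log2 fold change of 0.90. Of all genes tested in footprints 5.63% were called higher and 5.5% lower. Cdca8 gave 38.6 and 37.4 against 67.7 and 88.7 CPM (log2 fold change 1.05, edgeR adjusted p = 0.000343) and Ccnb1 103 and 141 against 219.7 and 209 CPM (log2 fold change 0.82, edgeR adjusted p = 3.51e-05), whereas Kif20b gave 43.8 and 57.1 against 56.9 and 60.1 CPM with overlap (log2 fold change 0.22, edgeR adjusted p = 0.563). Of 46 lysosome genes 22 were lower and 0 higher, with a median of -0.47, and Ctsd gave 1606 and 1450.2 against 693 and 689 CPM (log2 fold change -1.15, edgeR adjusted p = 1.53e-13). For myeloid markers 15 of 25 were lower and 0 higher, with a median of -0.97, and Lyz2 gave 355 and 356 against 100.5 and 83.1 CPM (log2 fold change -1.96, edgeR adjusted p = 2.63e-14). Cnn1 gave 922 and 851 against 517 and 421 CPM (log2 fold change -0.92, edgeR adjusted p = 3.63e-09) and Col3a1 774 and 665 against 1596 and 1666 CPM (log2 fold change 1.18, edgeR adjusted p = 1.53e-13). Footprints of Cdkn1a were 566 and 521 against 431 and 382 CPM (log2 fold change -0.42, edgeR adjusted p = 0.00133), and those of Mdm2 223 and 214 against 143 and 125 CPM (log2 fold change -0.71, edgeR adjusted p = 6.72e-05). The RNA and footprint libraries lay on the same side of their controls in all of these genes except Kif20b, where replicates overlapped.

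**Figure D4:**
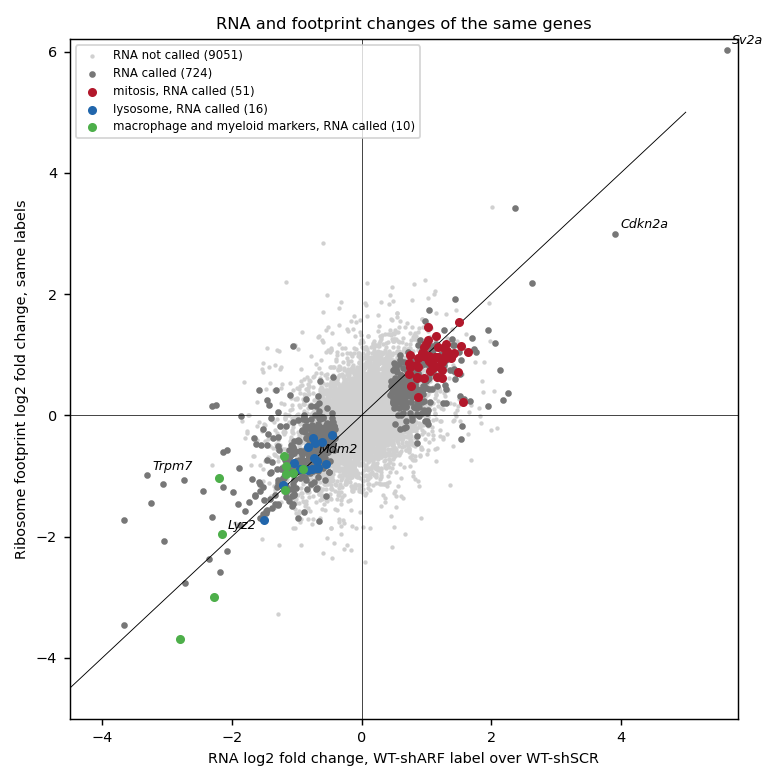
Each point is 1 gene tested in both assays, with the RNA log2 fold change (libraries labelled WT-shARF over WT-shSCR) on the x axis and the footprint log2 fold change on the y axis; dark grey, red, blue and green points are called in RNA, and the diagonal marks equal change. Mitosis genes lie in the upper right, lysosome genes and myeloid markers in the lower left, Cdkn2a at 3.91 and 2.99, and Trpm7 at -3.31 and -0.99; 1 gene lies outside the axes.

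Arf-/--shSCR MEFs were compared with the same WT-shSCR libraries, so these values are shown side by side and were not tested against each other. The median log2 fold change in RNA was 1.00 in the libraries labelled WT-shARF and 1.13 in Arf-/--shSCR for mitosis, 0.44 and 0.48 for DNA replication, 0.38 and 1.37 for histones, -0.49 and -0.79 for lysosome genes, -1.15 and -3.16 for myeloid markers, and -0.23 and -0.12 for contractile genes. Cdkn1a changed by -0.73 with the hairpin label and by -2.18 (edgeR adjusted p = 3.78e-06) in Arf-/--shSCR, and Mdm2 by -0.74 and -1.16 (edgeR adjusted p = 0.00111). Csf1r gave -0.90 and -3.56 (edgeR adjusted p = 4.21e-08), and Lyz2 -2.15 and -3.97 (edgeR adjusted p = 3.31e-09). Of the contractile genes, Cnn1 gave -1.07 and -0.11 (edgeR adjusted p = 0.711), and Lmod1 -1.24 and -0.17 (edgeR adjusted p = 0.603). Ptgs2 gave -1.06 and -0.20 (edgeR adjusted p = 0.454). Col1a1 gave 0.45 and -0.13 (edgeR adjusted p = 0.641), and Serpine2 -1.16 and -3.09 (edgeR adjusted p = 6.14e-08). Psph gave 1.03 and -0.21 (edgeR adjusted p = 0.716).

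RNA fold changes also varied with the GC content of the coding sequence. Over 5 equal classes of GC, from 34.5 to 47.2% up to 58.2 to 77.9%, the median log2 fold change was 0.16, 0.04, -0.03, -0.08 and -0.10 in RNA, and between -0.03 and 0.02 in footprints. The median GC content was 49.4% for genes called higher, 55.6% for genes called lower and 52.9% for the others, and their median coding lengths were 1923, 1377 and 1476 bases. Within each class the mitosis medians were 1.05, 1.03, 1.00, 0.89 and 0.57 (35, 16, 8, 14 and 2 genes), and the lysosome medians -0.23, -0.43, -0.69, -0.62 and -0.56 (5, 15, 10, 11 and 5 genes). With an offset for GC, chosen after the data were seen, 52 mitosis genes were called higher and 16 lysosome genes lower, and of all genes 329 were higher and 382 lower.

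**Figure D5:**
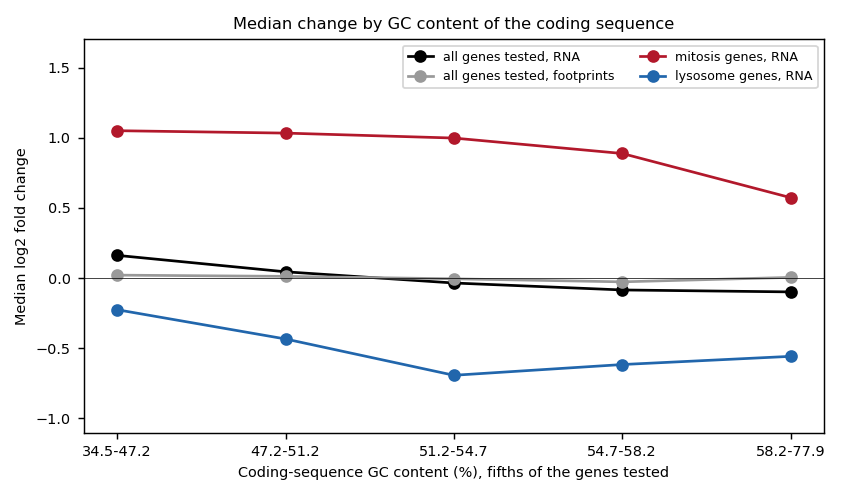
Median log2 fold change (y axis) of the tested genes in each of 5 equal classes of coding-sequence GC content in percent (x axis), for RNA of all genes in black, footprints of all genes in grey, RNA of mitosis genes in red and RNA of lysosome genes in blue. The black line goes from 0.16 to -0.10, while mitosis stays above 0.5 and lysosome below -0.2 in every class, the highest of which holds 2 mitosis and 5 lysosome genes.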

How the data were processed

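The authors clipped adapters, split reads by barcode, removed molecular identifiers and barcodes (UMI-tools, cutadapt), removed rRNA and other noncoding RNA (Bowtie2) and aligned the rest to mm10 (TopHat). They deposited raw HTSeq counts per gene over its coding sequence, and removal of duplicate reads was not stated. For RNAseq, RNA was depleted of rRNA and hydrolysed to fragments of 17 to 34 nt. Of the HTSeq records of the 4 libraries 3.63% to 5.26% fell on genes and 79.2% to 81.3% were not unique. The 5 summary rows per file were left out.

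The 4 libraries were fitted with the quasi-likelihood F test of edgeR 4.0.16 (R 4.3.3, TMM factors) after filterByExpr (minimum count 10), which left out 10158 genes. A call is an adjusted p (Benjamini-Hochberg, over all genes tested) under 0.05. Footprints and Arf-/--shSCR cells were fitted the same way. DESeq2 1.42.0 was an alternative. With 1 library left out, the lone library was assumed to vary like the others. Promoters came from RefSeq GRCm38.p6. Symbols matched the annotation of GRCm38 for 19843 of 20661 genes, and 601 more by an older symbol.

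The 39 gene lists and all members were chosen with earlier results of these data known. Genes named were Cdkn2a, Cdkn2b, Cdkn1a, Mdm2, Trp53, Ccnd1, Mki67, Trpm7, the 12 largest rises and 12 largest falls among called genes without overlap and with at least 5 CPM in the higher group, and up to 4 called members of each list with the largest change and no overlap. Others were chosen after their values were seen. No outlier test was run on groups of 2. Values of a few genes and some promoter windows are not reported here.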

Additional observations from a re-analysis of the deposited data

How the results depend on the processing

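The 4 counts of calls (RNA higher 327, RNA lower 438, higher in both assays 170, lower in both 225) came to 115, 176, 87 and 106 with DESeq2 and to 131, 206, 83 and 100 at an adjusted p under 0.01. With all 6 libraries of an assay in 1 edgeR fit the RNA counts were 217 and 280. Leaving out 1 replicate, they ranged from 121 to 371, 153 to 512, 74 to 166 and 71 to 188. A minimum of 10 counts in each library, no filter, RLE or upper quartile factors and the GC offset kept all 4 within 1.5 times. The log2 fold change of Trp53 reversed, from -0.10 to 0.02 without WT-shSCR replicate 2 and 0.12 without WT-shARF replicate 2, within a range of -0.30 to 0.12 on leaving out 1 replicate, at no point past the threshold. Among the 127 genes named by rule, no other changed sign under any alternative that tested it. The other genes in the text were not followed through all alternatives. With the replicate block the counts were 437, 574, 225 and 297, and no gene named by rule lost its call. Over all genes tested, deviations of equal replicate numbers correlated at 0.0168 between WT-shSCR and WT-shARF RNA, and at 0.035 and 0.0482 between RNA and footprints. These low values do not settle whether equal numbers were paired, because counting error also lowers them. Sv2a and Pot1b, given below, were highest in WT-shARF replicate 1 of both assays. Depth limited 10158 genes, which had too few reads, and PCR copies were not separated from molecules.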

Other observations

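Genes outside the lists above, chosen after their values were seen, added other groups to the falls. Mt1 and Mt2, metallothioneins that bind zinc and copper, fell together. Mt1 stood at 35.2 and 22.8 against 5.96 and 5.92 CPM (log2 fold change -2.31, SE 0.38, edgeR adjusted p = 0.000156), and Mt2 had 19 and 24 reads against 1 and 6, an inverse ratio per library size of 9.0 (95% counting interval 4.01 to 23.7). Apoe, the lipid carrier of macrophages and other cells, stood at 316 and 277 against 85.1 and 77.7 CPM (log2 fold change -1.87, SE 0.15, edgeR adjusted p = 4.44e-10). Both libraries labelled WT-shARF were below both controls in the 3 genes. Kif1a, a motor of vesicle transport best known in neurons, stood at 245 and 236 against 53.6 and 42.6 CPM (log2 fold change -2.35, SE 0.17, edgeR adjusted p = 2.3e-11), and its footprints at 183 and 215 against 41.8 and 35.9 CPM (log2 fold change -2.37, edgeR adjusted p = 1.81e-13). Uchl1, a deubiquitinase of neurons, stood at 198 and 202 against 67.7 and 66.5 CPM (log2 fold change -1.57, SE 0.16, edgeR adjusted p = 4.36e-08). Tgfb1i1, the focal adhesion protein Hic-5, stood at 175 and 191 against 70.4 and 68.2 CPM (log2 fold change -1.40, SE 0.16, edgeR adjusted p = 5.74e-07). Nppb, a natriuretic peptide, stood at 53.2 and 58.1 against 13.0 and 23.4 CPM (log2 fold change -1.52, SE 0.26, edgeR adjusted p = 0.000205). Stab1 and Cfp, a scavenger receptor and a complement factor of macrophages, fell 2.67-fold and 3.97-fold (edgeR adjusted p = 9.82e-06 and 0.000134). Mt1, Apoe, Kif1a, Uchl1, Tgfb1i1, Nppb, Stab1 and Cfp kept their calls whichever library was left out. The call of Mt2 was lost without WT-shSCR replicate 2 (edgeR adjusted p = 0.115).

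Fut10, a fucosyltransferase gene, stood at 364 and 381 against 126 and 112 CPM in RNA (log2 fold change -1.65, SE 0.14, edgeR adjusted p = 1.53e-09), with footprints of 5.23 and 11 against 6.84 and 5.60 CPM. On the side of the rises, Cep55, of the cut between daughter cells, stood at 6.13 and 13.7 against 28.7 and 33.6 CPM (log2 fold change 1.76, SE 0.35, edgeR adjusted p = 0.00157). Hmgb2 and Hmgb3, chromatin proteins of cycling cells, rose 2.11-fold and 3.34-fold (edgeR adjusted p = 0.00091 and 0.0105). Lrrc17, a secreted leucine-rich protein, stood at 19.1 and 28.7 against 42.8 and 80.3 CPM (log2 fold change 1.45, SE 0.27, edgeR adjusted p = 0.000647). Fut10, Cep55 and Hmgb2 kept their calls whichever library was left out. The call of Hmgb3 was lost without WT-shSCR replicate 1 or WT-shARF replicate 2 (edgeR adjusted p up to 0.247). The call of Lrrc17 was lost without WT-shARF replicate 2 (edgeR adjusted p = 0.168).

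Sv2a, a synaptic vesicle gene, was high in 1 library of each assay. Its RNA reads were 7 and 13 reads against 946 and 6, and its footprint reads 2 and 10 against 815 and 15. The groups overlapped, the edgeR adjusted p was 0.000887, and without WT-shARF replicate 1 it was 0.478. Pot1b, a telomere protein, had RNA reads of 13 and 11 reads against 97 and 20 and footprint reads of 21 and 25 against 67 and 25.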
